A study of Mus musculus with 52 samples.

Results

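The genes described here are Nos2 and 4 genes of arginine metabolism (Slc7a2, Slc7a1, Ass1 and Asl), 5 of the 27525 genes in a table of normalized counts from mouse pancreatic tumors. They were selected by name from the 4 treatment groups of that table, with their levels there already known. Their values in those groups are therefore given as a description, with no test.

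KPC tumors were grown under the skin of male C57BL/6NHsd mice aged 8 to 10 weeks from KxPxCx cells, which derive from a pancreatic carcinoma with the Trp53 R172H allele and Pdx1-Cre. In the experiment labelled ST#23, 8 tumors were untreated and 8 were injected on day 0 with 2 µg of ADU-S100, which is an analog of cGAMP and an agonist of STING. A further 8 came from mice given 4 intraperitoneal doses of 100 µg of the agonistic anti-LTbR antibody (clone 4H8) until day 10, and 8 from mice given both agents (combination). All were collected on day 14 and each gave 1 bulk RNA-seq library of 12762453 to 15591986 recovered reads. Every tumor came from the same implanted cells under the skin, outside the pancreas, and a library holds tumor cells and host cells together.

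Inducible nitric oxide synthase, the product of Nos2, turns arginine into nitric oxide and citrulline. Ass1 and Asl encode the enzymes that rebuild arginine from citrulline. Arginine enters cells through the cationic amino acid transporters encoded by Slc7a1, which most dividing cells use, and Slc7a2, which activated macrophages use. In tumors, Nos2 is known as a gene of macrophages stimulated by interferon gamma.

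Nos2 (ENSMUSG00000020826, GRCm38 chr11:78920787-78960254, plus strand) stood in the order untreated, ADU-S100, anti-LTbR and combination. In untreated tumors it ran from 763 to 1530 normalized counts, with a median of 1012. ADU-S100 tumors ran from 1073 to 2080 with a median of 1542, and 4 of the 8 lay above every untreated tumor. Anti-LTbR tumors ran from 2016 to 3224 (median 2669) and combination tumors from 2341 to 5678 (median 4084). Neither of these groups overlapped with the untreated group, and each overlapped with its neighbour in the order. The means were 1083 ± 277 (SD, n = 8), 1536 ± 397, 2717 ± 410 and 4075 ± 1160 normalized counts. On the scale of log2(normalized count + 1), the combination mean lay 1.9 ± 0.19 (SE) above untreated tumors, the anti-LTbR mean 1.35 ± 0.14 and the ADU-S100 mean 0.50 ± 0.17. The combination lay 0.54 ± 0.16 above anti-LTbR alone, with 5 of 8 tumors above every anti-LTbR tumor, and 1.40 ± 0.19 above ADU-S100 alone. The difference of the combination from the sum of the 2 single agents was 0.04 ± 0.24.

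Ass1 (ENSMUSG00000076441, chr2:31470207-31520672, plus strand), which encodes argininosuccinate synthase, had a median of 228 normalized counts in untreated tumors, with a range of 170 to 268, and of 219 in ADU-S100 tumors, with a range of 155 to 327. Anti-LTbR tumors lay between 193 and 367 with a median of 289, and combination tumors between 346 and 644 with a median of 445. The combination group lay above every untreated tumor, while the other 3 groups overlapped with each other. The log2 difference from untreated tumors was 1.03 ± 0.14 for the combination, 0.37 ± 0.14 for anti-LTbR and 0.04 ± 0.15 for ADU-S100. The combination exceeded the sum of the single agents by 0.61 ± 0.21.

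Asl (ENSMUSG00000025533, chr5:130011258-130029247, minus strand), which encodes argininosuccinate lyase and takes the next step to arginine, had nearly the same level everywhere. Its lowest and highest values were 234 and 356 normalized counts in untreated tumors, 208 and 313 in ADU-S100 tumors, 235 and 296 in anti-LTbR tumors and 249 and 297 in combination tumors. The combination lay 0.10 ± 0.08 below untreated tumors on the log2 scale.

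Slc7a2 (ENSMUSG00000031596, chr8:40862396-40922308, plus strand) was higher in both groups that received anti-LTbR. Untreated tumors ran from 650 to 2156 normalized counts with a median of 806, and ADU-S100 tumors from 534 to 1372 with a median of 1045. The median was 2142 in anti-LTbR tumors, which lay between 1338 and 3246, and 2707 in combination tumors, which lay between 1262 and 3781. The 2156 of untreated replicate 3 stood far above the other 7 untreated tumors, whose highest value was 1092, and every anti-LTbR and combination tumor lay above those 7. The log2 difference from untreated tumors was 1.5 ± 0.24 for the combination, 1.19 ± 0.21 for anti-LTbR and 0.15 ± 0.23 for ADU-S100. The combination lay 0.31 ± 0.19 above anti-LTbR alone, and the groups overlapped.

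Slc7a1 (ENSMUSG00000041313, chr5:148327410-148399904, minus strand), the other arginine transporter, had the opposite order. Untreated tumors lay between 2633 and 3603 normalized counts with a median of 3279, ADU-S100 tumors between 2323 and 3547 with a median of 3035, and anti-LTbR tumors between 2514 and 3168 with a median of 2754. The combination had a median of 1995, with its tumors between 1504 and 2337, below every untreated and every anti-LTbR tumor. The log2 differences from untreated tumors were -0.72 ± 0.09 for the combination, -0.20 ± 0.07 for anti-LTbR and -0.06 ± 0.08 for ADU-S100. The combination lay a further -0.45 ± 0.12 from the sum of the single agents.

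Exons of Slc7a2 overlap those of Gm26584 on the opposite strand. The libraries kept strand, but whether strand was used in counting is not given in the sources used here.

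**Figure D1:**
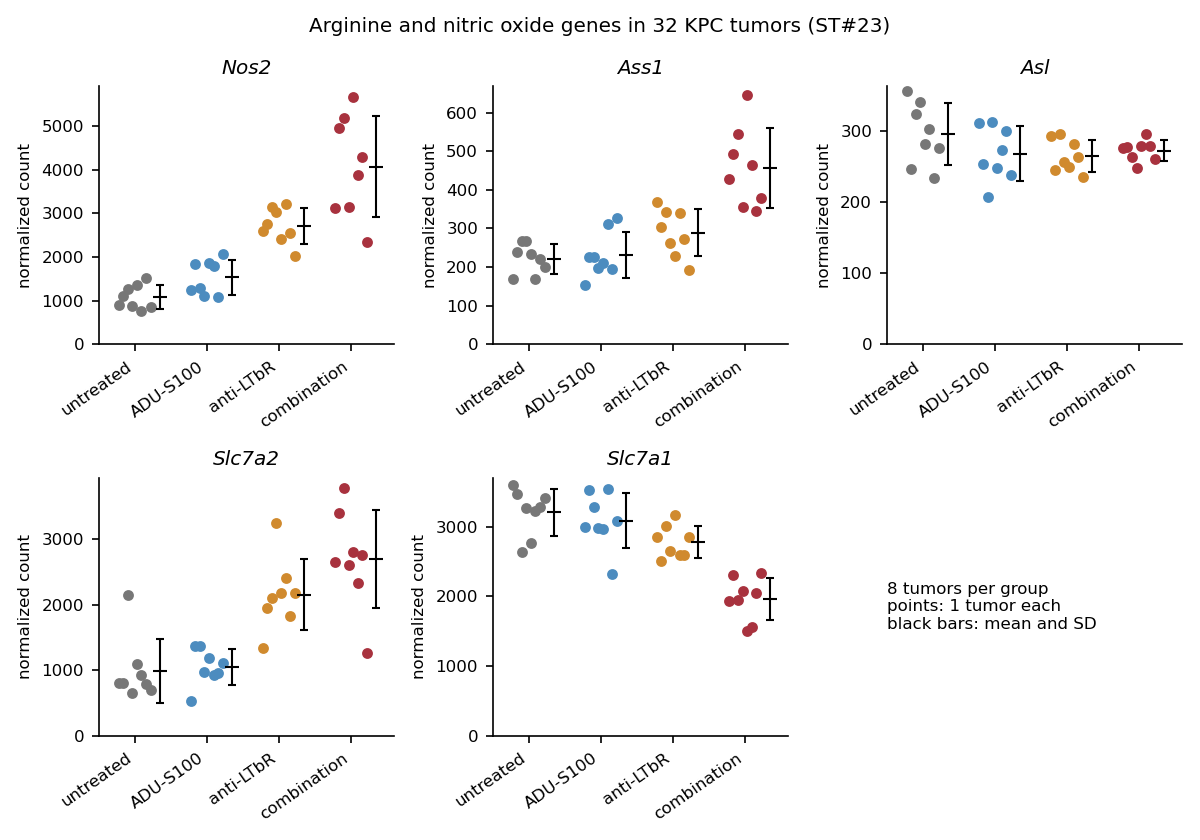
Normalized counts (vertical axes, from 0) of the 5 genes in each of the 32 tumors of ST#23 by group, with the mean and SD of 8 tumors beside the points. Nos2, Ass1 and Slc7a2 are highest and Slc7a1 is lowest in the combination, where Nos2 runs from 2341 to 5678, while Asl overlaps in all 4 groups.

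Against untreated tumors, 3 of the 5 genes had no overlap with the combination (Nos2, Ass1 and Slc7a1), 1 had none with anti-LTbR (Nos2) and 0 had none with ADU-S100. Over all genes tested, the groups did not overlap for 10.7%, 1.77% and 0.0421% of genes in these comparisons. Slc7a1 did not overlap between combination and anti-LTbR tumors, where 3.15% of all genes did not. The comparisons with untreated tumors share the same 8 untreated libraries. Because the genes were selected from these groups, nothing is read from the counts.

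**Figure D2:**
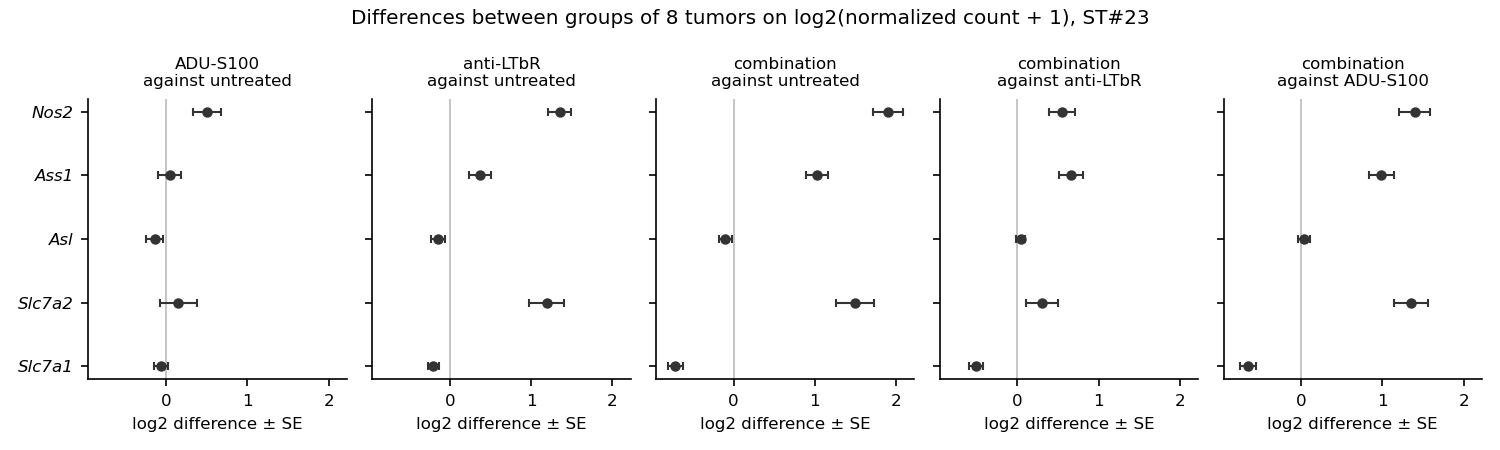
Differences between groups of 8 tumors in ST#23 on log2(normalized count + 1) (horizontal axes, points with SE bars) for the 5 genes in 5 comparisons. Nos2 lies to the right of 0 in each panel, by 1.9 in combination against untreated tumors, and Slc7a1 lies to the left in the 3 panels of the combination.

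Levels per kb of exon allow the genes to be set against each other within a tumor. The ratio of Slc7a2 to Slc7a1 had a median of 0.296 in untreated tumors (0.251 to 1.03), 0.473 in ADU-S100 tumors (0.225 to 0.528), 0.927 in anti-LTbR tumors (0.591 to 1.54) and 1.80 in combination tumors (0.681 to 2.46). It was below 1 in 7 of 8 untreated tumors and above 1 in 7 of 8 combination tumors. Nos2 exceeded Ass1 in every tumor, with a mean ratio of 2.70 ± 0.60 in untreated, 3.69 ± 0.75 in ADU-S100, 5.24 ± 0.73 in anti-LTbR and 4.89 ± 1.01 in combination tumors (SD, n = 8).

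**Figure D3:**
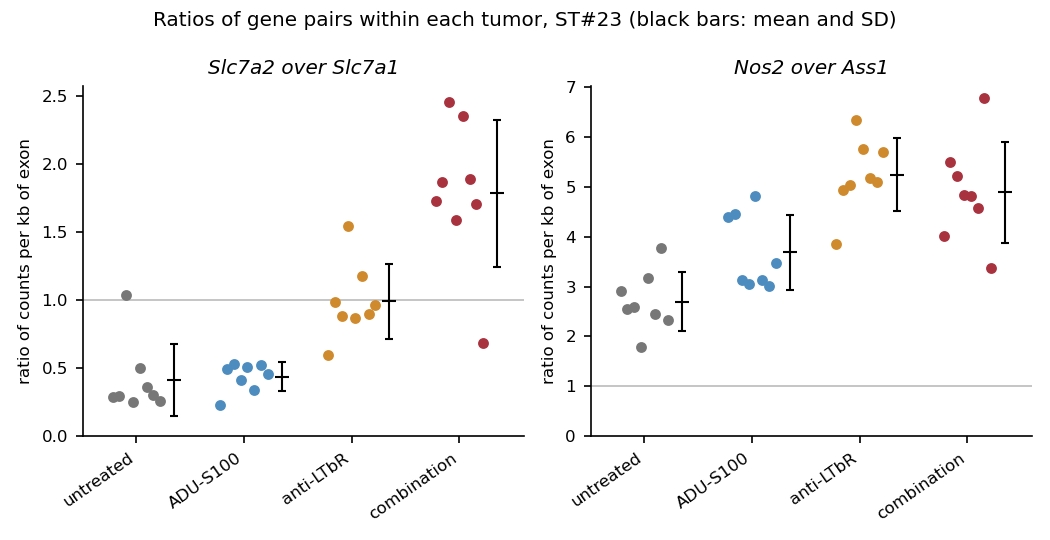
Ratios of normalized counts per kb of exon (vertical axes, from 0) within each of the 32 tumors, Slc7a2 over Slc7a1 on the left and Nos2 over Ass1 on the right, with mean and SD of 8 tumors and a gray line at a ratio of 1. The median of Slc7a2 over Slc7a1 runs from 0.296 in untreated to 1.80 in combination tumors, and Nos2 over Ass1 lies above 1 in every tumor.

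In bulk tumors, more cells of a type and more RNA per cell cannot be told apart. Of 11 macrophage markers, 6 rose and 0 fell in combination against untreated tumors (limma, adjusted p under 0.05 over all genes), and none was at 0 in every library. Their summed level in normalized counts was 29032 to 55907 for untreated tumors, 29902 to 46298 for ADU-S100, 47957 to 60504 for anti-LTbR and 45708 to 93476 for the combination. Set against this sum, Nos2 amounted to 28.1 ± 11.3 per 1000 macrophage marker counts for untreated tumors, 37.5 ± 8.35 for ADU-S100, 51.1 ± 5.88 for anti-LTbR and 58.0 ± 7.27 for the combination (SD, n = 8). Slc7a2 amounted to 24.1 ± 7.53 in untreated, 40.7 ± 10.3 in anti-LTbR and 38.9 ± 8.46 in combination tumors. Ass1 amounted to 5.63 ± 1.33 in untreated and 6.64 ± 1.12 in combination tumors, Slc7a1 to 82.8 ± 19.7 and 30.3 ± 11.3, and Asl to 7.54 ± 1.61 and 4.09 ± 0.95. On this scale the means of Nos2, Slc7a2 and Ass1 were higher and those of Slc7a1 and Asl lower in the combination than in untreated tumors, with overlapping ranges for each gene. Of 8 epithelial tumor cell markers, 5 fell, and their summed level ran from 18309 to 34394 in untreated and from 7702 to 16606 in combination tumors. All 8 fibroblast, all 8 T cell and all 6 endothelial markers rose in the combination, as did 4 of 5 B cell, 4 of 7 dendritic cell and 3 of 11 neutrophil markers, and none of these fell. The summed neutrophil markers ran from 4066 to 10517 normalized counts in untreated and from 6790 to 34372 in combination tumors. The part of these cell markers in the differences of the 5 genes between groups was not tested.

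Tumors of a group also differed among themselves. Deviations from the group means were set against each other over the 32 tumors for the 10 pairs of the 5 genes, as a description with no test. Of these pairs, Nos2 with Ass1 had the highest Pearson's r, at 0.66 (Spearman's rho 0.65), and r was between 0.51 and 0.74 in each of the groups. Without the 2 tumors farthest from the median of Nos2, r was 0.69. Nos2 with Slc7a2 had an r of 0.52 (rho 0.49), with r from 0.32 to 0.82 within groups, 0.48 without the 2 farthest tumors and 0.53 without untreated replicate 3. For the other 8 pairs r lay between -0.25 and 0.25. The summed macrophage markers moved with all 3 of these genes, with an r of 0.50 for Nos2, 0.55 for Ass1 and 0.65 for Slc7a2. The summed epithelial markers had an r of -0.58 with Nos2, -0.37 with Ass1 and -0.35 with Slc7a2, and the T cell markers an r of 0.66 with Slc7a2. The dendritic cell markers had an r of 0.56 with Ass1, 0.34 with Nos2 and -0.16 with Slc7a2. The genes of a tumor share 1 library, and the relations were not computed with these markers held fixed.

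Among 17648 genes, those whose deviations from the group means were most like those of Nos2 over the 32 tumors were Gbp5 (r = 0.79), Acod1 (0.76), Icam1 (0.75), Enpp2 (0.75) and Plxnd1 (0.75). Gbp5 encodes an interferon-induced GTPase, Acod1 the enzyme that makes itaconate in activated macrophages, and Icam1 an adhesion molecule. No test is given, since these genes were selected on r.

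The genes around the pathway were grouped in lists, and each gene was tested in combination against untreated tumors with limma over all 16909 genes tested, of which 19.6% were higher and 23.6% lower at an adjusted p under 0.05. The median log2 difference over all genes was -0.02. Of 15 genes for other nitric oxide synthases, their protein partners and the cofactor tetrahydrobiopterin, 2 rose and 7 fell (median -0.16). Of the synthases, Nos3 rose by 0.63 (adjusted p = 0.00202) and Nos1 did not pass (0.93, adjusted p = 0.151). Hsp90aa1 and Hsp90ab1, heat shock proteins that bind the synthase, fell by 0.57 ± 0.08 (adjusted p = 5.4e-05) and 0.38 ± 0.06 (adjusted p = 0.00018), and Gchfr, which regulates cofactor synthesis, fell from 132 ± 50.1 to 53.0 ± 14.7 normalized counts (adjusted p = 0.000147). Gch1, the first enzyme of cofactor synthesis, did not pass, at 291 ± 43.3 and 250 ± 29.4 (adjusted p = 0.0756).

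Of 10 genes of nitric oxide signalling and of the making and breakdown of methylarginines, which inhibit the synthases, 4 rose and 4 fell (median -0.23). Gucy1a1, a subunit of the soluble guanylate cyclase that nitric oxide activates, rose from 34.8 ± 9.44 to 77.9 ± 13.3 normalized counts (adjusted p = 6.73e-05). Prkg2, a kinase that cyclic GMP activates, fell from 8457 ± 1104 to 4771 ± 938 (adjusted p = 5.81e-05). Prkg1, the other such kinase in the list, rose by a log2 difference of 0.97 (adjusted p = 0.00727). Prmt5, an arginine methyltransferase, fell by 0.33 ± 0.06 (adjusted p = 0.000246).

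Of 8 genes of the urea cycle and of proline synthesis, 3 rose and 2 fell. Oat, which moves ornithine towards proline and glutamate, rose by a log2 difference of 0.30 ± 0.07 (adjusted p = 0.00268). Aldh18a1, which makes the precursor of proline and ornithine from glutamate, fell by 0.40 ± 0.07 (adjusted p = 0.000214), and Slc25a13, the mitochondrial carrier that exports aspartate, fell by 0.57 ± 0.15 (adjusted p = 0.00546). Of 14 polyamine genes, 2 rose and 4 fell. Odc1, which turns ornithine into putrescine, did not pass (2857 ± 401 and 2475 ± 240 normalized counts, adjusted p = 0.0577), while Smox, spermine oxidase, rose by 0.40 ± 0.07 (adjusted p = 0.000282). Azin1, which protects ornithine decarboxylase from its antizyme, fell by 0.27 ± 0.06 (adjusted p = 0.00137), and Dohh, which modifies eIF5A, fell by 0.33 ± 0.07 (adjusted p = 0.00113). Of 10 genes for creatine and other uses of arginine, 3 rose and 3 fell. Slc6a8, the creatine transporter, rose by 0.31 ± 0.09 (adjusted p = 0.00866), Rars, the arginyl-tRNA synthetase, fell by 0.36 ± 0.07 (adjusted p = 0.00107), and Padi4, which converts arginine in proteins to citrulline, fell by 0.32 ± 0.09 (adjusted p = 0.00896).

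Of 14 other amino acid transporters, 4 rose and 5 fell. Slc38a9, an arginine-sensing transporter of the lysosome, rose by 0.49 ± 0.08 (adjusted p = 0.000144), Slc7a8 by 0.52 ± 0.10 (adjusted p = 0.000554), and Slc7a11, the cystine importer, by 0.52 ± 0.16 (adjusted p = 0.0123). Slc7a5, which imports leucine and other large amino acids, fell by 0.69 ± 0.13 (adjusted p = 0.000705). Of 13 genes of the response to amino acid shortage, 2 rose and 9 fell (median -0.55). Asns, asparagine synthetase, fell from 2431 ± 650 to 1069 ± 212 normalized counts (adjusted p = 3.83e-05). Trib3, a target of the factor ATF4, fell from 1924 ± 451 to 847 ± 228 (adjusted p = 6.18e-05), and Psat1, an enzyme of serine synthesis, from 2424 ± 578 to 1350 ± 269 (adjusted p = 0.000266).

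Of 18 known inducers of Nos2, 10 rose and 2 fell (median 0.27). The 2 that fell were Nfkb1 (-0.18, adjusted p = 0.0109) and Rela (-0.14, adjusted p = 0.0281). Ifng, interferon gamma, rose from 40.9 ± 17.4 to 107 ± 44.1 normalized counts (adjusted p = 0.00174) and Tnf from 78.0 ± 18.3 to 199 ± 76.5 (adjusted p = 0.000214). Tlr2, a receptor of bacterial lipoproteins, rose by 0.79 ± 0.13 (adjusted p = 0.000175), and the transcription factors Irf8 and Irf1 rose by 0.64 ± 0.12 and 0.42 ± 0.12 (adjusted p = 0.000411 and 0.00758). Il1b, another inducer, had 629 ± 241 and 573 ± 95.0 (adjusted p = 0.841). Of 16 macrophage genes induced by interferon gamma and LPS, 11 rose and 0 fell (median 0.66). Acod1 rose from 232 ± 49.5 to 724 ± 208 (adjusted p = 1.82e-05), Fpr2, a receptor of myeloid cells, from 108 ± 36.9 to 309 ± 105 (adjusted p = 0.000113), and Gbp5 from 802 ± 159 to 1756 ± 517 (adjusted p = 0.000203).

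Il4ra, the IL-4 receptor, fell by 0.24 ± 0.06 (adjusted p = 0.00382), and Il10, a cytokine that restrains inflammation, fell from 36 ± 11.4 to 18.6 ± 3.42 normalized counts (adjusted p = 0.00141). Of 14 macrophage genes induced by IL-4, 3 rose and 0 fell (median 0.32). These were Ear2, a ribonuclease (1.44 ± 0.30, adjusted p = 0.00121), Egr2 (0.40 ± 0.15, adjusted p = 0.0443) and Tgm2 (0.38 ± 0.13, adjusted p = 0.0307). The other 11 did not pass. With edgeR and TMM scaling on recovered reads, the number of genes called in each of these lists changed by at most 1, over the genes tested both ways. The median of the list induced by IL-4 was then 0.21, against 0.38 with limma over the same 13 genes, and 2 of them changed sign. Between combination and ADU-S100 tumors, where 20.2% of all genes were higher and 26.0% lower in the combination, 10 of 13 genes induced by IL-4 rose and 0 fell (median 0.92). Of the genes induced by interferon gamma and LPS, 9 of 16 rose and 0 fell there (median 0.71). In the same comparison 10 of 11 macrophage, 6 of 7 dendritic cell, 7 of 8 T cell, 4 of 5 B cell, 3 of 11 neutrophil, all 8 fibroblast and all 6 endothelial markers rose, and 5 of 8 epithelial tumor cell markers fell. The part of these markers in the changes of the lists was not tested. Of the genes called between combination and ADU-S100 tumors 43.7% were higher, against 51.5% with edgeR and TMM scaling. Between ADU-S100 and untreated tumors, where limma called 0.0% of all genes, 0 of 13 genes induced by IL-4 were called (median -0.45). Of the genes induced by interferon gamma and LPS, 0 of 15 were called there (median 0.09).

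**Figure D4:**
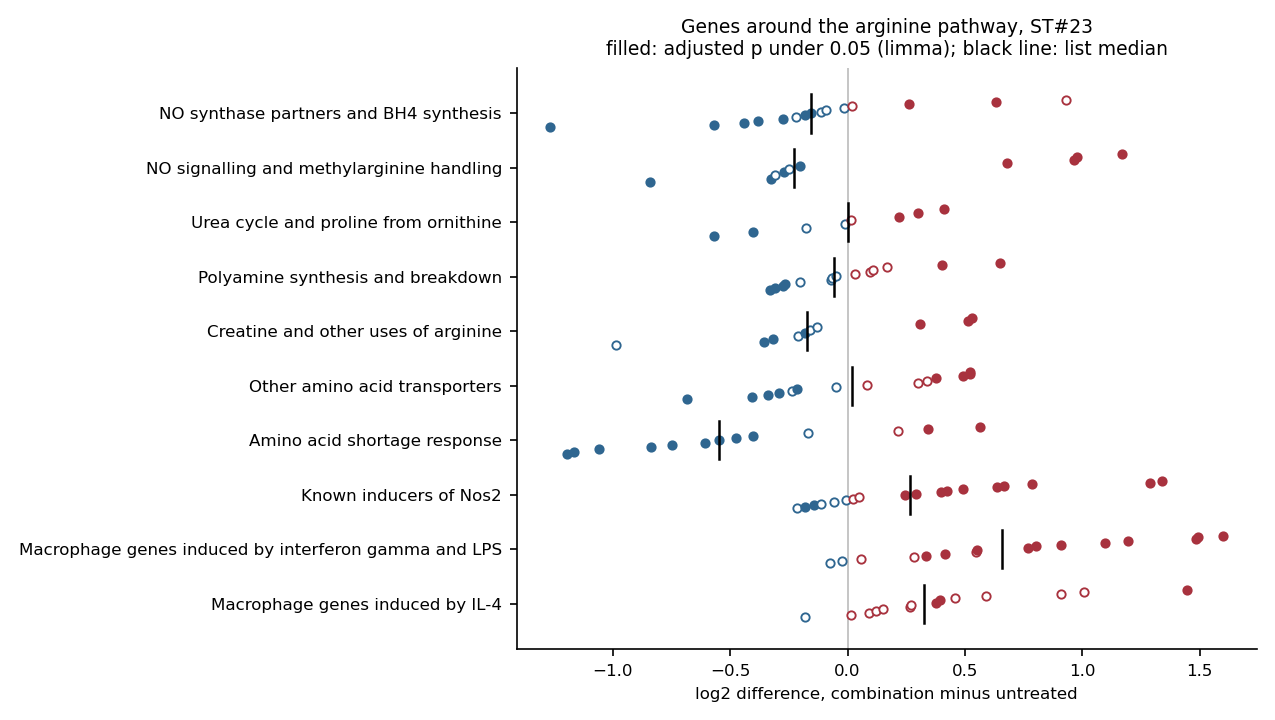
Log2 difference between combination and untreated tumors (horizontal axis) for each tested gene of 10 lists around the arginine pathway, red above 0 and blue below, filled where the adjusted p of limma was under 0.05; black lines mark list medians. The shortage response lies mostly left of 0 (median -0.55), and the genes induced by interferon gamma and LPS mostly right (median 0.66).

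Anti-LTbR alone was compared with untreated tumors in the same way, where 7.21% of all genes were higher and 8.1% lower. Of the known inducers of Nos2, 5 of 18 rose and 0 fell, and of the genes induced by interferon gamma and LPS 7 of 16 rose and 0 fell. Ifng rose by 1.06 ± 0.22 (adjusted p = 0.00665), Irf1 by 0.41 ± 0.07 (adjusted p = 0.00222) and Gbp5 by 0.86 ± 0.11 (adjusted p = 0.000529). Tnf did not pass (0.40 ± 0.19, adjusted p = 0.142). Of the genes of amino acid shortage, 2 of 13 rose and 5 fell, with Asns lower by 0.57 ± 0.12 (adjusted p = 0.00899). Of the macrophage markers, 4 of 11 rose and 0 fell, and of the epithelial tumor cell markers 0 of 8 rose and 5 fell (median -0.57). Of the dendritic cell, T cell and endothelial markers 2 each rose, and of the fibroblast and B cell markers 1 each. The part of these markers in the changes of the lists was not tested.

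Between combination and anti-LTbR tumors, 11.3% of all genes were higher and 15.3% lower in the combination. Of the genes called, 42.6% were higher, against 54.5% with edgeR and TMM scaling on recovered reads. Of the genes of amino acid shortage, 0 of 13 rose and 9 fell, with Asns lower by 0.59 ± 0.10 (adjusted p = 0.00103) and Trib3 by 0.71 ± 0.14 (adjusted p = 0.00218). Of the known inducers of Nos2, 5 of 18 rose and 1 fell. Tnf rose by 0.89 ± 0.23 (adjusted p = 0.00985) and Tlr2 by 0.42 ± 0.12 (adjusted p = 0.0197), while Ifng (0.28 ± 0.24, adjusted p = 0.419) and Irf1 (0.01 ± 0.11, adjusted p = 0.963) did not pass. Of the genes induced by interferon gamma and LPS, 3 of 16 rose and 0 fell. Fpr2 rose by 1.07 ± 0.20 (adjusted p = 0.00189) and Acod1 by 0.73 ± 0.19 (adjusted p = 0.01), while Gbp5 did not pass (0.23 ± 0.16, adjusted p = 0.3). Il10 fell by 0.71 ± 0.21 (adjusted p = 0.0195). In the same comparison all 8 fibroblast markers (median 1.34) and all 6 endothelial markers rose, as did 4 of 11 macrophage, 3 of 11 neutrophil, 3 of 8 T cell and 1 of 7 dendritic cell markers, while 4 of 8 epithelial tumor cell markers fell (median -0.47). Of 5 B cell markers, 0 were called. The part of these markers was not tested here either. The share called between ADU-S100 and untreated tumors was 0.0% by limma. There 2408 genes had an unadjusted p under 0.05, and edgeR called 1 gene and DESeq2 52.

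Promoter sequences from RefSeq (GRCm38.p6) were at hand for 2 of the 5 genes, and are shown because these genes had opposite directions in the combination. They are the bases before the annotated gene start, 5′ to 3′ on the gene's strand, with the match to a GC box (GGGCGG on either strand) in capitals.
Slc7a1, chr5:148399905-148400154, minus strand: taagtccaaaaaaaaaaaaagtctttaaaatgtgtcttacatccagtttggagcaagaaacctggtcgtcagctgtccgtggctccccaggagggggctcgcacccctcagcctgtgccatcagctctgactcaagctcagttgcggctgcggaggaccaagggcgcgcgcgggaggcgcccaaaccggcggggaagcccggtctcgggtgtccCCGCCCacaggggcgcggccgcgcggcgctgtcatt
Ass1, chr2:31470020-31470206, plus strand: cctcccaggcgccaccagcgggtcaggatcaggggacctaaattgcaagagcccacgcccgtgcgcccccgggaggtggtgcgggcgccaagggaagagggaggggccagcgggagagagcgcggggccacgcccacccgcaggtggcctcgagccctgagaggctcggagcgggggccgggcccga
Both strands were searched for the TATA box (TATAAA), the GC box (GGGCGG), the CCAAT box (CCAAT), the E-box (CACGTG) and the interferon gamma element GAS (TTCNNNGAA). The 250 bases of Slc7a1 held 1 GC box, as did 32.7% of 32851 promoters of the same length, and none of the other motifs. The 187 bases of Ass1 held none of the 5 motifs, where 22.2% of promoters of this length held a GC box and 5.46% a GAS. These matches describe the letters only.

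The experiment labelled ST#15 gave 20 further libraries from tumors of the same injected cells, in 4 letters of 5 tumors each. Their labels contradict each other. A description field names A as control, B as ADU-S100, C as anti-LTbR and D as combination, whereas the treatment field says combination for all 20. They are therefore given by letter. Ass1 and Asl have no row in the table of these libraries. Libraries C3 and D3 stood apart from the rest. D3 had 8716257 recovered reads and 17066 genes with a read, and 1 read was worth 3.78 normalized counts in it and 1.38 in C3, against 0.779 to 0.959 in the other 18. The genes were not selected from these libraries, so tests are given. The smallest p that the exact permutation test of 5 against 5 tumors can give is 0.00794.

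In ST#15, Nos2 had 456, 338, 1764, 535 and 1340 normalized counts in the tumors of A and 1839, 1044, 2093, 1254 and 928 in those of B. It had 1938, 2716, 2513, 3630 and 1302 in C and 1729, 3061, 6675, 1260 and 1080 in D. All letters overlapped with A, and the highest value came from D3, where 1 read was worth 3.78 normalized counts. C lay 1.66 ± 0.46 above A on the log2 scale (exact permutation p = 0.0238, adjusted p over all genes 0.147 by limma). D lay 1.59 ± 0.58 above A (exact permutation p = 0.0714, adjusted p = 0.184), or 1.18 without D3 and 1.32 with recovered reads scaled by library totals. B lay 0.92 ± 0.44 above A (exact permutation p = 0.127, adjusted p = 0.612). None of these passed the adjustment over all genes with limma, where 1.05% of genes were called in D, 0.279% in C and 0.0% in B. With DESeq2 on recovered reads, C passed (adjusted p = 0.0429).

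The summed macrophage markers had a median of 54840 normalized counts in A (50990 to 120092), 76466 in B (57175 to 126050), 110495 in C (58629 to 346770) and 115057 in D (95508 to 605858). Per 1000 macrophage marker counts, Nos2 amounted to 11.7 ± 4.81 in A, 17.5 ± 5.82 in B, 21.3 ± 9.57 in C and 15.1 ± 7.38 in D (SD, n = 5), with overlapping ranges. On the same scale Slc7a2 amounted to 21.9 ± 4.84 in A, 15.2 ± 3.31 in B, 32.4 ± 18.2 in C and 10.6 ± 5.64 in D, so that its mean was above A in C only. Slc7a1 amounted to 37.0 ± 16.3 in A, 20.5 ± 9.89 in B, 19.2 ± 14.7 in C and 8.94 ± 5.37 in D. The highest sums in C and D were those of C3 and D3, the libraries that stood apart. C3 also had the lowest Nos2, Slc7a2 and Slc7a1 of C on this scale, and D3 the lowest Slc7a2 and Slc7a1 of D. These values were not computed without C3 and D3. The part of the markers in the differences between letters was not tested.

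Slc7a1 had 3143, 2181, 2420, 1997 and 1810 normalized counts in A and 1456, 1215, 616, 1186 and 900 in D, so that D lay below A without overlap, as was so in either direction for 12.4% of all genes. The log2 difference was -1.14 ± 0.26 (exact permutation p = 0.00794, adjusted p = 0.0659). Without D3 it was -0.95 ± 0.18 and passed (adjusted p = 0.0185), without D1 it was -1.26 ± 0.27 and passed (adjusted p = 0.0433), and with DESeq2 it passed as well (adjusted p = 0.00219). C (2313, 2146, 571, 1444 and 1930) and B (897, 1900, 1326, 1599 and 1891) overlapped with A, with log2 differences of -0.58 ± 0.35 (exact permutation p = 0.167, adjusted p = 0.415) and -0.63 ± 0.21 (exact permutation p = 0.0238, adjusted p = 0.612). Without C3 the difference of C was -0.23.

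Slc7a2 had 1529, 906, 2522, 1059 and 1584 normalized counts in A and 3032, 4453, 1690, 3744 and 3000 in C. The lowest value of C was that of C3. C lay 1.09 ± 0.31 above A (exact permutation p = 0.0159, adjusted p = 0.153), and without C3 the difference was 1.30 ± 0.26 and passed (adjusted p = 0.0397). With DESeq2 it passed too (adjusted p = 0.0322). In D, with 1624, 1364, 1284, 1428 and 1141, it did not differ detectably from A (-0.07 ± 0.27, exact permutation p = 0.825, adjusted p = 0.887; 0.14 without A3), and B ran from 1062 to 1371 (-0.24 ± 0.23, exact permutation p = 0.444, adjusted p = 0.7).

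Between B and A no gene was called by limma. There 1105 genes had an unadjusted p under 0.05, and edgeR called 0 and DESeq2 375.

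**Figure D5:**
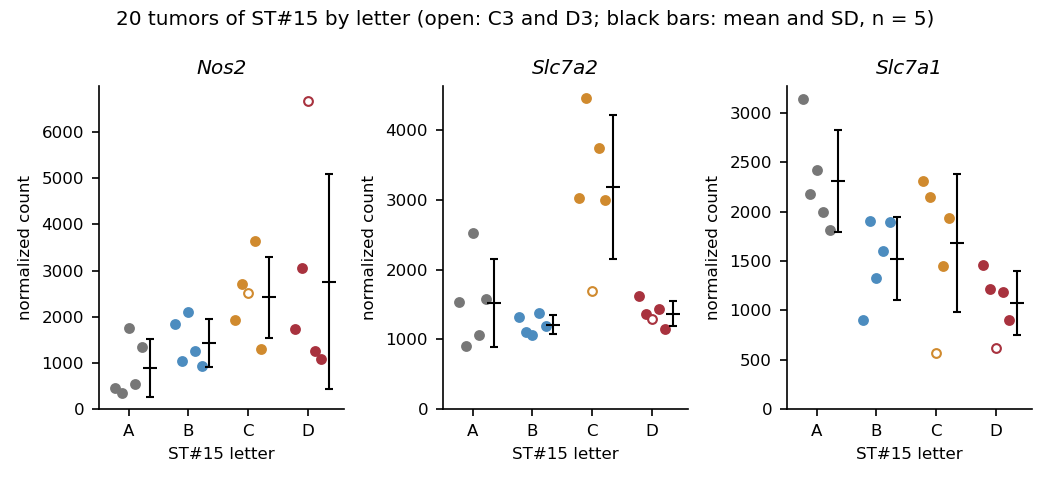
Normalized counts (vertical axes, from 0) of the 3 genes in the 20 tumors of ST#15 by letter, with open points for C3 and D3 and the mean and SD of 5 tumors. Slc7a1 in D lies below every tumor of A. The highest Nos2 value, 6675, is that of D3, where 1 read is worth 3.78 normalized counts.

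Over the 20 tumors of ST#15, none of the 3 pairs of these genes passed the adjustment. Nos2 with Slc7a2 had r = 0.41 (permutation p = 0.11, adjusted 0.11; rho = 0.44, permutation p = 0.0894, adjusted 0.164), 0.33 without the 2 farthest tumors and 0.68 without C3 and D3. Slc7a2 with Slc7a1 had r = 0.50 (permutation p = 0.0597, adjusted 0.108; rho = 0.36, permutation p = 0.149, adjusted 0.164), 0.28 without the 2 farthest tumors and 0.13 without C3 and D3. Nos2 with Slc7a1 had r = -0.39 (permutation p = 0.0722, adjusted 0.108; rho = -0.33, permutation p = 0.164, adjusted 0.164), -0.32 without the 2 farthest tumors and -0.30 without C3 and D3. Of the genes most like Nos2 in ST#23, Acod1 and Icam1 had r of 0.63 and 0.81 with it here, Plxnd1 0.65, Gbp5 0.11 and Enpp2 -0.14. Without C3 and D3 these were 0.85, 0.76, 0.45, 0.74 and 0.28.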

How the data were processed

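Bulk RNA-seq of KPC tumors was read from 2 tables of signal, that is, normalized counts, which the authors deposited. Each library's gene counts had been divided by a size factor. A table of 32 libraries gave the 4 groups of ST#23, and a table of 52 libraries gave the 20 tumors of ST#15. Per the labels and methods, poly(A) RNA was sequenced from stranded libraries and adapters were removed with cutadapt 1.9. HISAT2 with StringTie and STAR within Partek are both named, and which of them made each table is not given in the sources used here. A deposited table of the authors' gene set results was not used, and 0 per-sample columns were left out.

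Values in the larger table are whole multiples of the worth of 1 read in each library. Whole reads were recovered by dividing by it (100% of values whole within 0.02), although for 9 libraries a read is worth nearly 1, where rounding alone would give whole values. Recovered reads ran from 12762453 to 15591986 in ST#23 and from 8716257 to 18821792 in ST#15.

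Groups were compared with the trend test of limma 3.58.1 under R 4.3.3, applied to log2(value + 1) in the libraries of each comparison, on genes kept by filterByExpr (edgeR 4.0.16, minimum count 10). P-values were adjusted over all genes tested by the Benjamini-Hochberg method, and a gene was called at an adjusted p under 0.05. Fold changes on this scale understate those of low genes. For single values in ST#15 a two-sided exact permutation test was used, and relations between genes there were tested by 100000 permutations within groups. Replicates are separate tumors. Levels were compared between genes per kb of exon (GENCODE M21, GRCm38), and only positions of that build are given. Alternatives were a pseudocount of 0.5, other filters, all 4 groups in 1 fit, the replicate number as a block, a 2-fold threshold, edgeR with TMM and DESeq2 1.42.0 on recovered reads, and each ST#15 replicate left out. Scaling by library totals was added after seeing the data. The tests were tried on simulated data. The members, lists and tests were chosen with earlier results of these data known. Of the 7 members, 5 are described, and results for other items are not reported here. Named genes are these 5, up to 3 called genes with the smallest adjusted p in each list, 9 genes named in any case, and the 5 genes most like Nos2. Nos1, Nos3, Prkg1, Nfkb1 and Rela were named beside them.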

Additional observations from a re-analysis of the deposited data

Results flagged for a closer look

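The values of each gene in each group were searched for a single tumor far from the others, and 2 of 32 groups had such a tumor. The rule marks about 1 in 20 groups by chance alone, so nothing is read from this count. Both tumors came from the experiment whose levels were known when the genes were selected. Their values are therefore given as a description, with no test. Untreated replicate 3 had 2156 normalized counts of Slc7a2, where the other 7 untreated tumors ran from 650 to 1092. Replicate 7 of the ADU-S100 group had 2323 normalized counts of Slc7a1, where the other 7 ran from 2968 to 3547.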

How the results depend on the processing

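For the 5 genes in ST#23, 183 of 183 values under the alternatives had the direction of the reported value or moved by less than the spread between tumors. Other filters, all 4 groups in 1 fit and the replicate block cannot change the log2 difference itself, only its SE. Their agreement was therefore fixed in advance, and only the other alternatives could have moved these values. In combination against untreated tumors Nos2 ranged from 1.9 to 1.92 on the log2 scale, Slc7a2 from 1.46 to 1.52 and Slc7a1 from -0.72 to -0.70. For the 3 genes in ST#15, 6 of 153 values passed the threshold where the reported value did not, of which 3 came from DESeq2 on recovered reads and 3 from leaving out D1, D3 or C3. Adjusted p-values for Slc7a1 in D against A ranged from 0.00219 to 0.189 over the alternatives, and for Nos2 in C against A from 0.0429 to 0.338.

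Counts of genes called moved more. Requiring 2-fold, 1034 of 7305 genes were left in combination against untreated, 173 of 2555 in anti-LTbR against untreated, 357 of 4504 in combination against anti-LTbR and 1038 of 7759 in combination against ADU-S100. This turned the balance of directions, with 84.4%, 63.0%, 93.0% and 88.4% of the genes left being higher, against 45.3%, 47.1%, 42.6% and 43.7% of all genes called. For ADU-S100 against untreated tumors the count was 0, against 1 with all 4 groups in 1 fit, 1 with edgeR, 52 with DESeq2 and 2 with the replicate block. In D against A it was 159, against 40 with all 4 letters in 1 fit, 1945 with DESeq2, 41 by library totals and 41 with the replicate block, and 1 to 1405 with a replicate left out. It was highest without D3 and lowest without A2. In C against A it was 42, against 23 with all 4 letters, 20 with edgeR, 708 with DESeq2 and 4 with the replicate block, and 0 to 351 with a replicate left out. It was highest without C3 and 0 without A1, A2 or A4. In B against A it was 0, against 375 with DESeq2 and 0 to 1 with a replicate left out.

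Replicate numbers were not taken to pair the tumors, since no source says so. In each of the 8 comparisons at least 1 same-numbered pair had a correlation of deviations below 0. Such a value can also arise among paired tumors, so it does not decide the question. The mean correlation ran from -0.09 to 0.22 in ST#23, highest in ADU-S100 against untreated tumors (-0.03 to 0.56) and next in combination against anti-LTbR (-0.31 to 0.64, mean 0.19), and from -0.09 to 0.0027 in ST#15. With the replicate block 1660 genes were called in anti-LTbR against untreated tumors. In combination against untreated tumors the SE with the block was 0.10 for Nos2, against 0.19 without it. For Slc7a2 it was 0.15, against 0.24, and for Asl 0.088, against 0.082. Ass1 and Asl have no row in the larger table, so no alternative on recovered reads was run for them. At the lower depth of D3, a single read is worth 3.78 normalized counts.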
